A study of Bos taurus with 12 samples.

Results

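miR-150 and miR-342 are microRNAs of mature lymphocytes, and their forms were followed here in the blood of 12 Chinese Holstein dairy cows whose small RNA was sequenced. The members are all names in the deposited miRNA table that stand for miR-150 or miR-342 once species prefix, arm, copy number and isoform suffix are set aside. This gives 8 of the 1981 distinct names, 4 for each miRNA, and none of the 8 stands on more than 1 row. Of the cows 6 were classed as heat stressed and 6 as heat resistant. The study sorted them with PCA, using how warm they were rectally and how far their milk yield dropped, and the samples hold no other group. Tissue is labelled as blood for all 12, without saying whether whole blood, cells or plasma was used, and no treatment, age or sampling time is given. Nothing says more of the libraries than their numbers, so p-values measure the spread between these 12 samples.

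A miRNA hairpin is cut into a 5′ and a 3′ product, of which usually one is loaded into Argonaute and accumulates while the other is degraded. From mouse work, miR-150 is known to be switched on as B and T cells mature, to restrain the transcription factor MYB, and to fall when the cells are activated. miR-342 lies within an intron of the gene EVL, an actin regulator, in human and mouse, and is abundant in resting lymphocytes and other leukocytes. The RefSeq annotation of cattle assembly ARS-UCD2.0 likewise places MIR342 inside EVL.

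The libraries held 6935781 to 10601301 counts in heat stressed and 4395454 to 10601069 counts in heat resistant cows, summed over all miRNA rows. Levels are given as CPM, that is counts scaled to a common library total after TMM correction for differences in composition, and miRNAs are close enough in length for levels to be set side by side. Blood markers were present throughout. The red cell miRNA miR-451 ran from 7195 to 18118 CPM in heat stressed and from 4658 to 24819 CPM in heat resistant cows. The myeloid and platelet miRNA miR-223 ran from 6338 to 12199 CPM and from 5798 to 9494 CPM in the same order. Certain libraries stood apart. Heat resistant cow 4 had 9.63% of its counts in the red cell list (miR-451, miR-144, miR-486, miR-96, miR-182 and miR-183), against at most 2.93% in the other 5 of its group while heat stressed cows had 2.58% to 8.0%, with a median of 5.15%. Heat resistant cows 1 and 2 had 19.0% and 21.9% in the liver list (miR-122, miR-885, miR-192 and miR-194), while heat stressed cows had 6.01% to 9.37% and the remaining heat resistant cows 5.29% to 8.38%. Among pairs within a group, counts differed least between heat resistant cows 1 and 2 and cows 3 and 5 (chi-square per degree of freedom 110 and 87.1). The lowest value between heat stressed cows was 147. Whether this reflects a link between cows was not tested, and the labels name none.

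Of the 8 names, 4 carried nearly all reads, 1 for each arm of each hairpin. The main product of miR-342 is the 3′ one and that of miR-150 the 5′ one. They stood at ranks 42 and 59 of the 1981 names by mean CPM. The 3′ product of miR-150 stood at rank 214 and the 5′ product of miR-342, listed under its goat name, at rank 267. Both cattle names of the main products give no arm, which was taken from the names of the other rows.

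The main product of miR-342 had higher values in heat stressed cows. Its level was lowest at 3588, median 6281 and highest 7671 CPM in heat stressed cows, against 2581, 2736 and 4742 CPM in heat resistant cows. Heat stressed cows 2 and 3 lay within the range of the other group, and heat resistant cows 4 and 6 lay above the lowest heat stressed cow, while the other 4 heat resistant cows were all below it. The means were 6017 ± 1695 and 3183 ± 866 CPM (SD, n = 6 each), a log2 fold change of 0.92 ± 0.21 (SE), or 1.89-fold. The adjusted p over all features was 0.0686 with edgeR's quasi-likelihood test, which misses the threshold of 0.05. As a plain share of counts, without TMM scaling, it was 0.593 ± 0.147% against 0.320 ± 0.0863% (SD, n = 6 each).

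The passenger of miR-342, its 5′ product, was a small part of the reads of the hairpin and also had higher values in heat stressed cows. It stood at 29.1, 52.0 and 68.1 CPM (lowest, median, highest) in heat stressed cows, against 24.0, 30.4 and 41.3 CPM in heat resistant cows. Apart from heat stressed cow 2, every heat stressed cow lay above the highest heat resistant one. By edgeR this was 0.73 ± 0.21 on the log2 scale (SE), at an adjusted p of 0.0857.

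The main product of miR-150 spread more widely within each group than that of miR-342. Its level was lowest at 1643, median 2263 and highest 4837 CPM in heat stressed cows, against 836, 1389 and 2394 CPM in heat resistant cows. The groups overlapped, since heat stressed cows 4 and 6 alone lay above the highest heat resistant cow, cow 3. The means were 2595 ± 1179.9 and 1433 ± 563 CPM (SD, n = 6 each), and edgeR gave 0.86 ± 0.29 as their log2 fold change (SE) with 0.123 as adjusted p. The size of this difference depended on 1 library. Without heat stressed cow 6 the log2 fold change was 0.51 (adjusted p = 0.306). The SD of its log2 CPM within groups was 0.56, against 0.40 for the main product of miR-342 and a median of 0.45 over the 756 tested features.

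The 3′ product of miR-150, its minor arm, also had higher values in heat stressed cows. It stood at 51.6, 124 and 152 CPM (lowest, median, highest) in heat stressed cows, against 36.0, 50.1 and 79.3 CPM in heat resistant cows. Again only heat stressed cow 2 lay within the range of the other group, and heat resistant cows 4 and 6 were the 2 that exceeded it. The log2 fold change was 1.09 ± 0.26 (SE), or 2.13-fold, with an adjusted p of 0.0686 by edgeR.

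**Figure D1:**
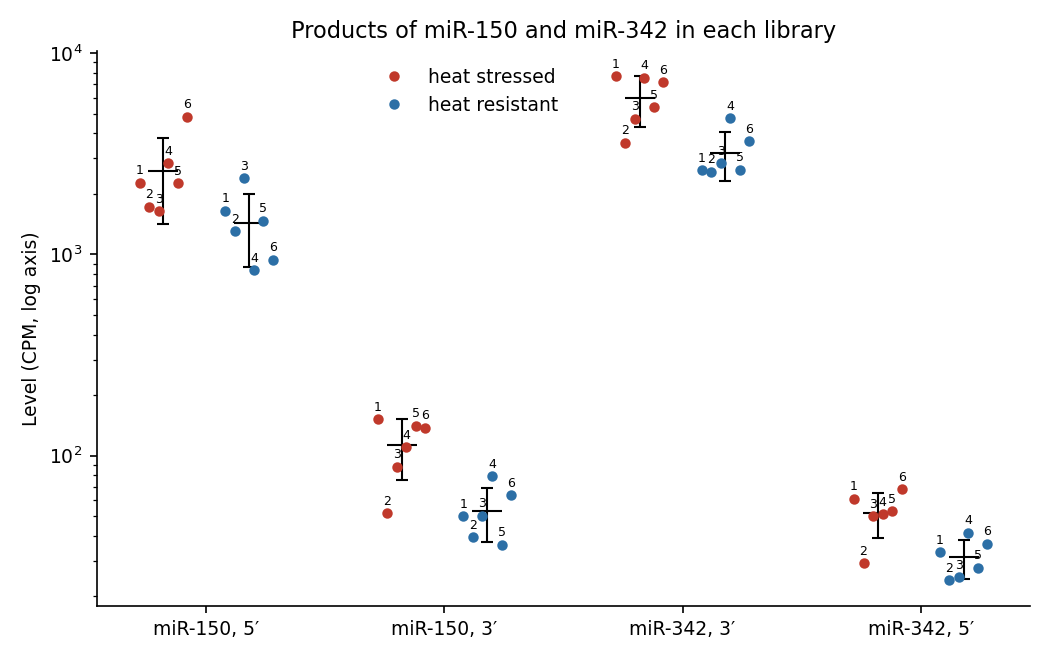
Level of the 4 arm products in each library (CPM, log axis), heat stressed in red and heat resistant in blue, with the cow number above each point and the mean ± SD of each group (n = 6) in black. For miR-342 and the 3′ product of miR-150, heat stressed cow 2 is the lowest of its group and heat resistant cow 4 the highest of the other, while for the 5′ product of miR-150 heat resistant cow 4 is the lowest, at 836 CPM.

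The other 4 names are rare forms of the main arms. An opossum-named form of miR-150-5p (mdo) held 0.130% to 0.272% of the reads of that arm, 11 to 76 counts per library. It stood at 3.38, 4.73 and 12.1 CPM in heat stressed cows and 1.55, 2.27 and 3.11 CPM in heat resistant cows (lowest, median, highest), so the groups did not overlap. This was the case, with higher values in heat stressed cows, for 0.529% of all tested features. By edgeR its log2 fold change was 1.42 ± 0.35 (SE) and its adjusted p 0.0692. A rabbit-named form of miR-342-3p (ocu) had 14 to 37 counts in heat stressed and 0 to 19 in heat resistant cows, or 1.80 ± 0.55 on the log2 fold scale (SE, adjusted p = 0.0973 by edgeR). A pig-named form of miR-150 (ssc) was listed at 0 in 1 heat stressed and 3 heat resistant libraries, and its highest count was 30. A second rabbit-named form of miR-342-3p, whose name marks a substitution, had 5 counts in each of 3 libraries and 0 in the others. The smallest value above 0 among the members was 5, so low values may have been listed as 0, and no upper limit is given for a 0.

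The filter on low counts kept 6 of the 8 names, all but the last 2. edgeR called 0 of these 6, as it called 0% of the 756 tested features, and limma-voom called none either. At an unadjusted p under 0.05 with higher values in heat stressed cows stood all 6, against 9.13% of the tested features, and lower values at that p were found in 10.2%. This count is a description and no support for a difference. The members were chosen with earlier results known, they come from 2 hairpins, and the rabbit-named form passed the filter mainly through its counts in heat stressed cows. DESeq2 called 5 of the 6 (adjusted p = 0.00222 for the 3′ products of miR-150 and of miR-342), where it called 3.87% of 749 features in that direction, and its adjusted p for the main product of miR-150 was 0.0645. With no filter on low counts edgeR called 2 of the 8 names (0.303% of all in that direction), and with repeat rows summed it called 2 of 6 (1.16%). Both times these were the main product of miR-342 and the 3′ product of miR-150.

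**Figure D2:**
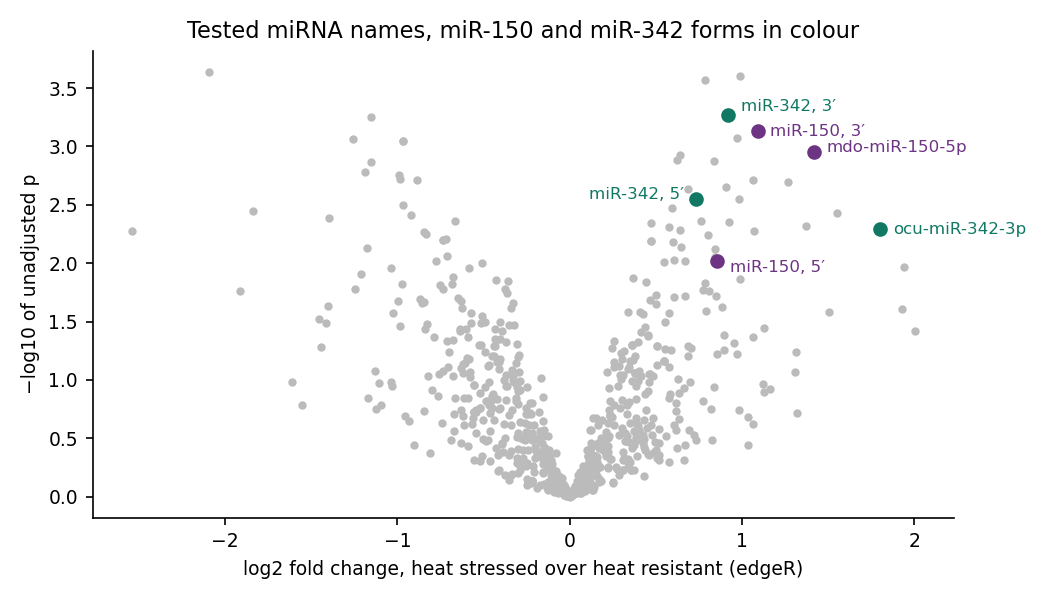
Log2 fold change of heat stressed over heat resistant cows (x axis) and −log10 of the unadjusted edgeR p (y axis) for the 756 tested features in grey, with the 6 tested forms of miR-150 in purple and of miR-342 in green. The coloured points lie between 0.73 and 1.80 on the log2 scale, and the main product of miR-150 has the largest p among them.

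Calls for 3 of the 4 arm products appeared when either of 2 libraries was left out. Without heat resistant cow 4 the log2 fold change was 1.07 for the main product of miR-342, 0.84 for its 5′ product and 1.25 for the 3′ product of miR-150 (edgeR adjusted p = 0.00513, 0.0182 and 0.00754), and 8.37% of features were called in that direction. Without heat stressed cow 2 they were 1.04, 0.87 and 1.26 (edgeR adjusted p = 0.0120, 0.0170 and 0.00941), and 2.84% were called. These 2 cows are those nearest to the other group in the 3 products, so leaving either out widens the differences by construction. Leaving out heat resistant cow 4 had the opposite effect on the main product of miR-150, whose log2 fold change was then 0.73 (edgeR adjusted p = 0.0984). Without the 2 heat resistant cows high in liver miRNAs the log2 fold changes were 0.77 for the main product of miR-342 and 0.85 for that of miR-150 (edgeR adjusted p = 0.256 and 0.334).

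**Figure D3:**
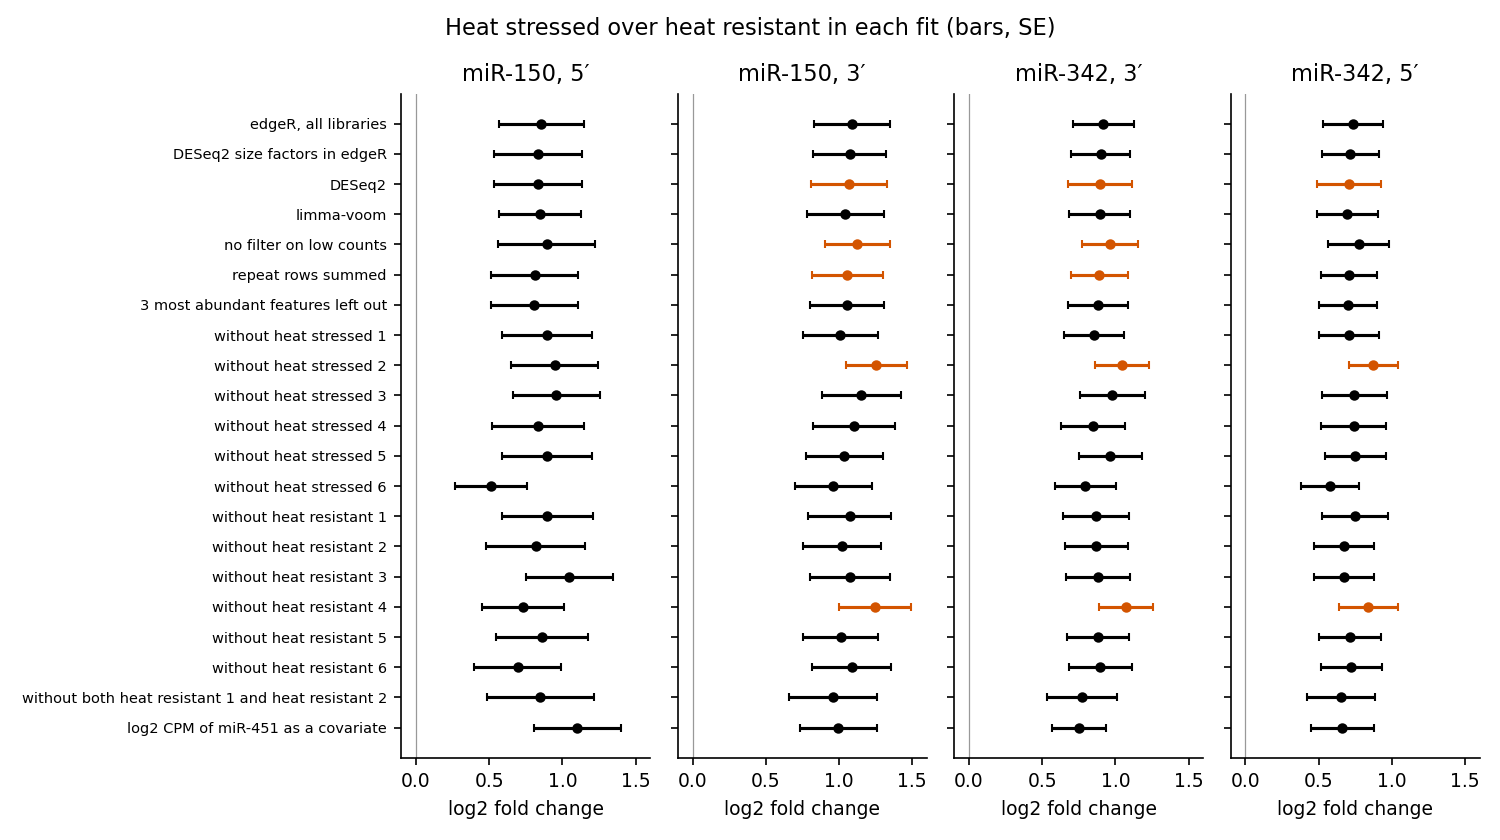
Log2 fold change of heat stressed over heat resistant cows with its SE (bars) for each arm product, with adjusted p under 0.05 in orange and other values in black. Each fit is shown except the one with a replicate block. All values lie above 0, and the lowest, 0.51, is that of the 5′ product of miR-150 without heat stressed cow 6.

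The products of miR-342 and the 3′ product of miR-150 varied together over the 12 cows, while the main product of miR-150 followed none of them closely. The Pearson correlation of log2 CPM between the 3′ product of miR-150 and the main product of miR-342 was 0.95 (permutation p = 5e-05, adjusted over 6 pairs 1e-04; Spearman's rho 0.94, permutation p = 1e-05, the smallest that the permutations can give, adjusted 6e-05). Between the 3′ product of miR-150 and the 5′ product of miR-342 it was 0.95 (permutation p = 1e-05, adjusted 6e-05; rho 0.93, p = 4e-05). The 2 arms of miR-342 had an r of 0.93 (permutation p = 3e-05, adjusted 9e-05; rho 0.91, p = 1e-04). In contrast the 2 arms of miR-150 had an r of 0.53 (permutation p = 0.0777, adjusted 0.0988; rho 0.49, p = 0.109). The main products of the 2 miRNAs had an r of 0.52 (permutation p = 0.0823, adjusted 0.0988; rho 0.50, p = 0.104). The 5′ products of both had an r of 0.50 (permutation p = 0.0992; rho 0.47, p = 0.128). Whether the high correlations differ from the low ones was not tested.

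Leaving out the 2 cows farthest from the median kept this order, with r from 0.94 to 0.96 for the first 3 pairs and from 0.42 to 0.57 for the others. Part of a correlation over both groups comes from the difference between them, so it was also taken within each group of 6. The first 3 pairs then had r of 0.85 to 0.93 in heat stressed and 0.83 to 0.92 in heat resistant cows. None passed within a group after adjustment (smallest adjusted exact permutation p = 0.0667 and 0.0583 in the same order). For the main product of miR-150 the sign of r differed between the groups, a difference that was not tested. Its r was 0.57 with its own 3′ product and 0.69 with the main product of miR-342 in heat stressed cows, and -0.58 and -0.75 in heat resistant cows (exact permutation p = 0.247, 0.119, 0.236 and 0.101). Heat resistant cows 4 and 6, which had the most miR-342 and the most miR-150 3′ product of their group, had the least of the main product of miR-150. The points share libraries, depth and scaling.

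**Figure D4:**
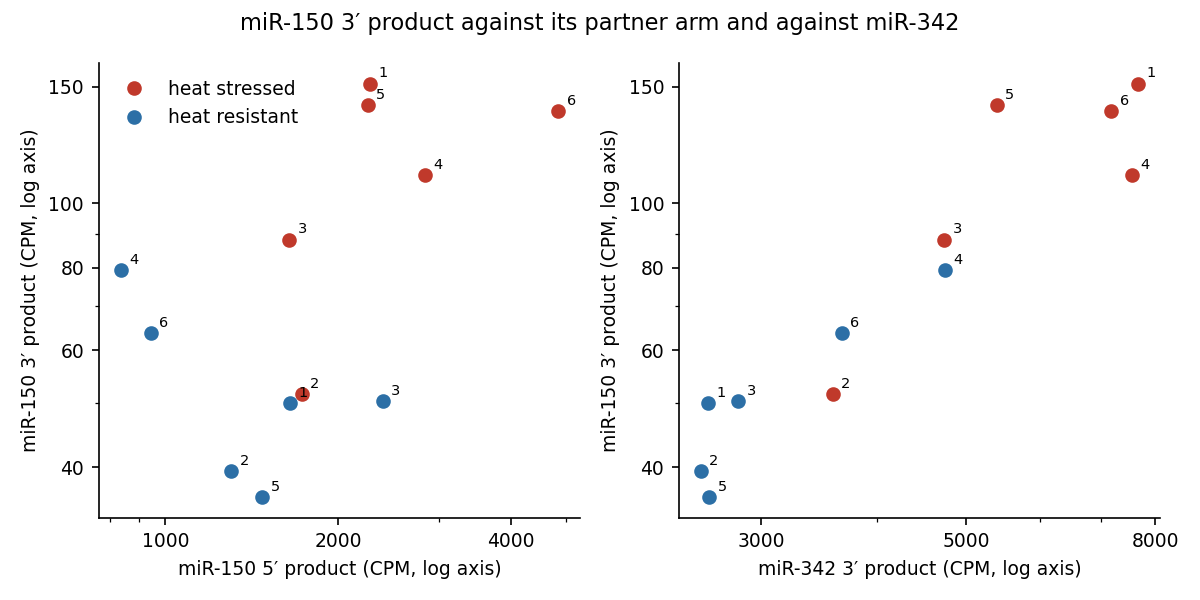
The 3′ product of miR-150 (y axis, CPM, log axis) against the 5′ product of the same hairpin (left) and against the main product of miR-342 (right; x axes CPM, log), 1 point per cow with its number, heat stressed in red and heat resistant in blue. The right panel has an r of 0.95 on log2 CPM and the left one 0.53, with heat resistant cows 4 and 6 farthest to the left in the left panel.

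Ratios taken within a library do not depend on its scaling, and 7 were compared between the groups by exact permutation of the 12 libraries, 2-sided, with adjustment over the 7. The ratio of miR-342 to miR-150, main products, had a wide range in heat resistant cows. It ran from 1.48 to 3.38 in heat stressed cows and from 1.18 to 5.67 in heat resistant cows, in which cow 4 was the highest and cow 3 the lowest. The mean log2 ratio was 1.26 ± 0.41 and 1.20 ± 0.85 (SD, n = 6 each; exact permutation p = 0.883). The groups could not be told apart by this ratio, which does not show that both miRNAs differed alike between them.

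Arm usage had SDs of 0.53 and 0.87 on the log2 scale for miR-150 and of 0.24 and 0.20 for miR-342 in heat stressed and heat resistant cows (n = 6 each). The 3′ product of miR-150 was 2.85% to 6.69% of its 5′ partner in heat stressed cows and 2.12% to 9.51% in heat resistant cows, where cow 4 again stood highest. The difference in the mean log2 ratio was 0.21 (exact permutation p = 0.626, adjusted 0.808). The 5′ product of miR-342 was 0.679% to 1.06% of its 3′ partner in heat stressed cows and 0.876% to 1.27% in heat resistant cows. That difference was -0.19 on the log2 scale (exact permutation p = 0.162, adjusted 0.379).

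Set against miR-223, miR-342 had higher values in heat stressed cows, by a call that depended on the libraries kept. There were 0.463, 0.667 and 0.947 counts of its main product per count of miR-223 (lowest, median, highest) in heat stressed cows, against 0.304, 0.414 and 0.531 in heat resistant cows. Heat stressed cow 2 was the only one of its group within the range of the other. The mean log2 ratio was -0.56 ± 0.41 against -1.30 ± 0.28 (SD, n = 6 each), a difference of 0.75 or 1.68-fold (exact permutation p = 0.00433, adjusted 0.0303). Here p cannot fall below 0.00216, and the call did not hold without heat stressed cow 1, 3 or 4 or heat resistant cow 1, 2, 5 or 6, when the adjusted p was 0.0606 to 0.0758. miR-223 itself had 8704 ± 2006 and 7778 ± 1490 CPM (SD, n = 6 each), and by edgeR a log2 fold change of 0.16 ± 0.17 (SE, adjusted p = 0.607). The ratio of miR-150 to miR-223 differed by 0.69 on the log2 scale (exact permutation p = 0.0801, adjusted 0.280), and it passed without heat resistant cow 3 (difference 0.91, adjusted exact permutation p = 0.0379).

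Against miR-451 neither miRNA differed beyond its spread. The difference in log2 ratio was 0.35 for miR-342 (exact permutation p = 0.325, adjusted 0.568) and 0.29 for miR-150 (exact permutation p = 0.693, adjusted 0.808). The sign of the last turned without heat resistant cow 4 (-0.19) and without heat stressed cow 6 (-0.01).

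**Figure D5:**
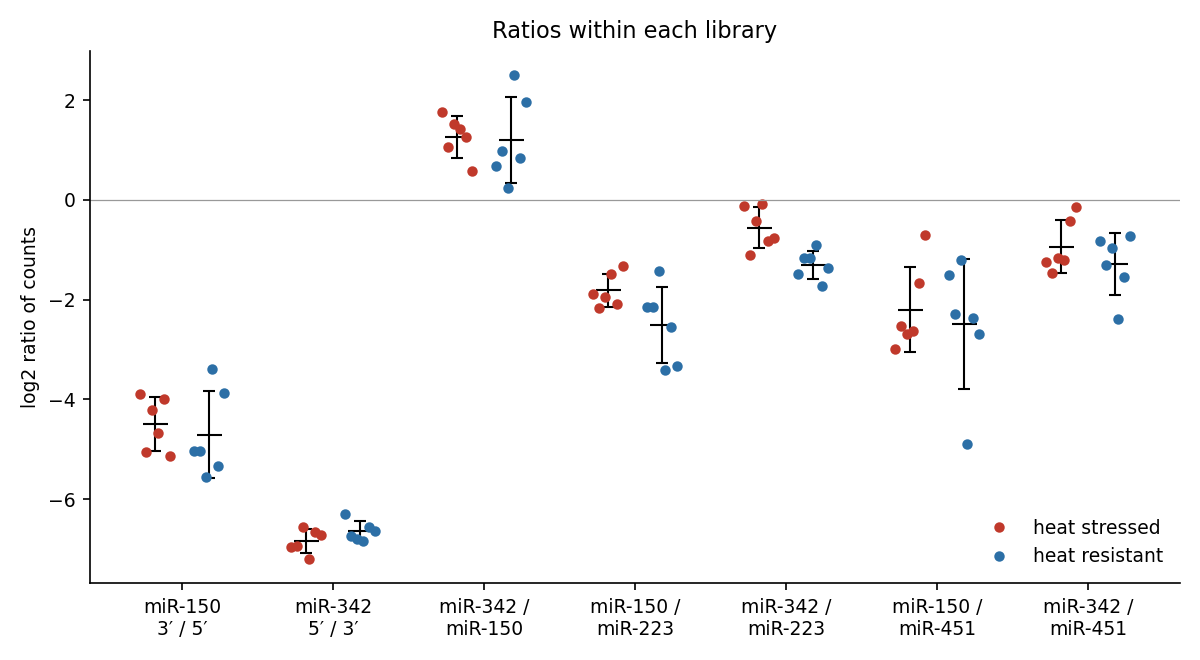
Log2 ratio of counts in each library for the 7 ratios, heat stressed in red on the left of each pair and heat resistant in blue on the right, with the mean ± SD (n = 6) in black. The ratio of miR-342 to miR-223 is the one with an adjusted p under 0.05, and heat resistant cow 4 is the extreme point in the ratios of miR-150 to miR-451, at -4.89, and of miR-342 to miR-150, at 2.50.

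A list of other lymphocyte miRNAs, with miR-29a as its most abundant, had a larger summed share in heat stressed cows. Its features were split in direction. The list of 13 (miR-29a, miR-29b, miR-29c, miR-181a, miR-181b, miR-181c, miR-181d, miR-155, miR-146a, miR-28, miR-31, miR-26b and miR-363) had 23 tested features, of which 11 had higher and 12 lower values. edgeR called none of them, as it called 0% of all tested features. At an unadjusted edgeR p under 0.05, 6 of the 23 were higher and 2 lower, against 9.13% and 10.2% of all tested features. The median log2 fold change of the list was -0.03, against a median of 0.00 over all features. The list held 3.31%, 3.66% and 4.70% of counts (lowest, median, highest) in heat stressed cows, against 2.55%, 3.01% and 3.37% in heat resistant cows. Heat stressed cows 2 and 5 alone lay within the range of the other group. These are plain shares without TMM scaling. The lowest, 2.55% and 2.62%, were those of heat resistant cows 1 and 2, which had 19.0% and 21.9% of counts in the liver list. The sum is weighted by abundant features, the most abundant being miR-29a. miR-29a, which is high in resting T cells, stood at 15303, 23937 and 29760 CPM (lowest, median, highest) in heat stressed cows and at 12004, 12843 and 17489 CPM in heat resistant cows (0.78 ± 0.17 as log2 fold change with SE, adjusted p = 0.0674 by edgeR). miR-26b stood at 7965 ± 2215 and 9282 ± 2219 CPM (SD, n = 6 each), with a log2 fold change of -0.22 ± 0.20 (SE). miR-181a, which tunes T cell receptor signalling, and miR-28-3p had log2 fold changes of -0.15 ± 0.13 and -0.10 ± 0.16 (SE). The smallest adjusted p among these last 3 was 0.547 (edgeR). In a bulk blood sample that may be whole blood, cells or plasma, more cells of a type, more RNA per cell and more RNA outside cells cannot be told apart.

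No marker of other cells was called by edgeR, which called 0% of all tested features. In the red cell list 10 of 11 tested features had higher values (median log2 fold change 0.47). At an unadjusted edgeR p under 0.05 stood 0 of them, while 9.13% of all tested features were higher and 10.2% lower at that p. For miR-486 the log2 fold change was 0.64 ± 0.39, and for miR-451 it was 0.37 ± 0.39 (SE). The median share of the list was 5.15% of counts in heat stressed and 2.56% in heat resistant cows, in which it ran from 1.88% to 9.63%. With the log2 CPM of miR-451 in the fit, the log2 fold changes were 0.75 for the main product of miR-342 and 1.10 for that of miR-150 (edgeR adjusted p = 0.167 and 0.178). In that fit the minor arms had 0.66 (miR-342, 5′) and 0.995 (miR-150, 3′) (edgeR adjusted p = 0.218 and 0.170).

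The myeloid list (miR-223, miR-23a, miR-27a and miR-24) had 6 higher and 5 lower features, and 3.37% to 4.08% of counts in heat stressed against 3.50% to 5.80% in heat resistant cows. Within it miR-23a differed by -0.75 ± 0.28 and miR-24-3p by 0.13 ± 0.10 on the log2 scale (SE; edgeR adjusted p = 0.155 and 0.471). The platelet and endothelial list (miR-126, miR-199a, miR-199b, miR-151, miR-409 and miR-495) had 6 higher and 3 lower, with 1.45% to 2.19% against 1.40% to 2.13% of counts, and log2 fold changes of 0.05 ± 0.10 for miR-151-3p and -0.11 ± 0.16 for miR-151-5p (SE). The liver list had 2 higher and 8 lower, with log2 fold changes of -0.02 ± 0.15 for miR-192 and -1.42 ± 0.60 for miR-122 (SE). The muscle list (miR-1, miR-133a, miR-133b, miR-206, miR-208 and miR-499) had 4 higher and 1 lower, with 0.0340% to 0.108% against 0.0264% to 0.108% of counts, log2 fold changes of -0.02 ± 0.18 for miR-499 and 0.62 ± 0.69 for miR-206 (SE), and miR-208 not among the names. edgeR called no feature of these 4 lists. At an unadjusted edgeR p under 0.05 the myeloid list had 1 higher and 2 lower features, and the liver list had 1 lower. The platelet and endothelial list and the muscle list had 0 at that p. Over all tested features, 9.13% were higher and 10.2% lower. Beyond the fits above, the part of these markers in the values of miR-150 and miR-342 was not tested.

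The profile of miR-342 over the 12 cows had closer matches among other miRNAs than that of miR-150. Of 442 cattle features, the 5 with the highest Pearson correlation of log2 CPM with the main product of miR-342 were miR-32 (r = 0.99), miR-29a (0.98), miR-2285bf (0.97), miR-6524 (0.97) and miR-142-5p (0.96). Their log2 fold changes were 0.97 ± 0.23, 0.78 ± 0.17, 0.59 ± 0.17, 0.99 ± 0.21 and 0.84 ± 0.21 (SE; edgeR adjusted p from 0.0674 to 0.0939). Within groups the r of these 5 ran from 0.90 to 0.98 in heat stressed and from 0.92 to 0.98 in heat resistant cows. For the main product of miR-150 the 5 were miR-28 (r = 0.73), miR-34c (0.70), miR-429 (0.69), miR-1277 (0.69) and miR-33a (0.68). Spearman's rho for these was 0.50, 0.73, 0.59, 0.61 and 0.47 in the same order. Taken within groups, miR-429 had an r of 0.75 among heat stressed and 0.78 among heat resistant cows, and that of miR-34c was 0.91 and -0.11 in the same order. For miR-28, miR-1277 and miR-33a it was 0.84, 0.44 and 0.74 among heat stressed and 0.30, 0.40 and 0.11 among heat resistant cows. On the log2 scale miR-429 differed by 0.09 ± 0.17 between the groups and miR-34c by 0.98 ± 0.28 (SE; edgeR adjusted p = 0.834 and 0.0857). These features were picked for the size of r, so no p is given.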

How the data were processed

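Small RNA of 12 blood samples was sequenced. Per the labels' protocols, Trizol RNA was made into TruSeq small RNA libraries and run on a HiSeq instrument, and the ACGT101-miR program removed adapter dimers, low complexity reads, common RNA families and repeats. The aligner, the release of miRBase and the build were not given in the sources used here. That protocol text speaks of fewer libraries than the 12 used. The deposited raw columns are expected counts per miRNA row, 80.2% of the values above 0 being whole (within 1e-06), and all member values were. The 12 deposited normalized columns, a signal, equal the raw ones times a factor per library (0.692 to 1.70) and entered no test. Of 2183 rows, 202 repeat a name with the same values and were counted once.

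Counts were rounded and fitted in R 4.3.3 with edgeR 4.0.16 over the whole table (filterByExpr, minimum count 10, TMM, quasi-likelihood F test, robust), with Benjamini-Hochberg adjustment at 0.05, 2-sided. SE is the log2 fold change over the root of F. Log2 CPM and log2 ratios used a prior count of 2. Ratios were tested by exact permutation (Python 3.11.15), correlations with 100000 resamples or, within groups, exactly. The edgeR fit was tested on simulated data. Alternatives were DESeq2 1.42.0, limma-voom (3.58.1), DESeq2 size factors, no filter, summed repeat rows, the 3 most abundant features left out, a replicate block and each library left out. A fit with miR-451 as covariate and one without heat resistant cows 1 and 2 were added after seeing the data. Members, lists and tests were chosen with earlier results of these data known. The text names every member, the 5 cattle features most like each main product and the most abundant features of each list (4 for lymphocytes, 2 for others).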

Additional observations from a re-analysis of the deposited data

Results flagged for a closer look

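Of 30 groups of 6 values checked (8 names and 7 ratios in each group), 3 had a value whose gap to the nearest other exceeded 0.625 of the whole range. Chance alone gives about 1 in 20 for normally distributed values, a rate that does not hold for rare forms with counts of 0. The main product of miR-150 was 4837 CPM in heat stressed cow 6, against 1643 to 2836 CPM in the other 5 of its group. The pig-named form of miR-150 was 2.40 CPM in heat resistant cow 1, against 0 to 0.829 CPM in the others. The rabbit-named form of miR-342-3p with a substitution was 0.495 CPM in heat stressed cow 3, from 5 counts, and 0 in the other 5. With only 1 value above 0 the gap is the whole range, so this flag was fixed in advance.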

How the results depend on the processing

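The direction of the 4 arm products held in every fit run, and edgeR calls depended on the setting. The number of features called in either direction was 52 of 749 with DESeq2, 11 of 1978 without a filter and 13 of 776 with repeat rows summed. It was 0 to 97 with 1 library left out. The 3′ product of miR-150 was called with DESeq2 (log2 fold change 1.07), without a filter (1.13) and with repeat rows summed (1.06), as was the main product of miR-342 (0.90, 0.96 and 0.89), and the 5′ product of miR-342 with DESeq2 (0.71). With 1 library left out the log2 fold changes were 0.96 to 1.26 for the 3′ product of miR-150, 0.79 to 1.07 for the main and 0.58 to 0.87 for the 5′ product of miR-342, and 0.51 to 1.05 for the main product of miR-150. Differences in log2 ratio were then 0.65 to 0.86 for miR-342 to miR-223, 0.51 to 0.91 for miR-150 to miR-223, -0.13 to 0.32 for miR-342 to miR-150 and -0.19 to 0.54 for miR-150 to miR-451. The signs of the last 2 are thus not fixed. Of the 6 correlations, 3 passed over 12 cows and 0 within heat stressed or heat resistant cows, where the number of cows is 6. Within heat resistant cows the main product of miR-150 had r of -0.58, -0.75 and -0.74 with the other 3 products. The cause of these changes was not tested. The same replicate numbers stand in both groups, and no label says that they pair the cows. Correlations of the deviations of same-numbered cows ran from -0.05 to 0.28, not all above 0.1, and 3 of 6 heat stressed cows correlated best with their own number, so a pairing was not shown and not excluded. With the number as a replicate block edgeR called 8 of the 756 tested features in either direction. Of the 6 tested members 1 was among them, the main product of miR-342 (log2 fold change 0.90). The paired test of the ratio of miR-342 to miR-223 (difference 0.75, exact p = 0.0312, adjusted 0.219) gave the smallest p that 6 pairs allow. It did not pass after adjustment over the 7 ratios. At least 104 counts lay behind each value of the 4 arm products, while the rare forms rest on 76 counts or fewer.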
